A study of Homo sapiens with 6 samples.

Results

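Of the 60612 entries in a gene expression table, 10 genes of the oxygen-sensing pathway were followed in 6 RNA sequencing libraries of ARPE-19, an established human cell line from the retinal pigment epithelium. They comprise 3 factor subunits (HIF1A, EPAS1 and ARNT), the oxygen sensors EGLN1 and EGLN3, and VHL, which acts after the sensors. The other 4 (ADM, NDRG1, CA9 and BNIP3) are genes that the factors are known to switch on. The members were picked by gene name, and each name matched 1 row, so 10 of 10 were found. The cells of 3 libraries carried transfected miR-204-5p, a microRNA abundant in this epithelium, and those of the other 3 the control labelled miR-NC. The labels name no genetic change and give no dose, no time after transfection, no oxygen level and no stress treatment. The aim was a search for what miR-204-5p may target. The submitters describe the 3 replicates per group as biological but do not say whether they were separate cultures, so the p-values here measure the spread between these samples, which may be technical.

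When oxygen is plentiful, the EGLN enzymes hydroxylate prolines of the HIF alpha subunits (HIF1A and EPAS1), the VHL ubiquitin ligase then binds them, and the proteasome destroys them. When oxygen is short, the alpha subunits persist, pair with ARNT and bind hypoxia response elements near their target genes. Much of this control acts on protein, so the RNA of a factor is not a measure of its activity. In the pigment epithelium the pathway is best known for driving the supply of angiogenic factors to the choroid.

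The microRNA and the sites it could pair with in the members are shown here because they set which of these transcripts are candidates for direct pairing. The mature microRNA has 22 bases (RefSeq, GRCh38.p14, chr9:70810031-70810052, minus strand), with the seed, bases 2 to 8, in capitals.
hsa-miR-204-5p: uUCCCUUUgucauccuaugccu
The longest annotated 3′ untranslated region of each member (GENCODE release 29, GRCh38) was searched for AAAGGGAA (8mer), AAAGGGA (7mer-m8), AAGGGAA (7mer-A1) and AAGGGA (6mer), each shorter class counted only outside the longer ones. Of the 10 members, 1 holds an 8mer, VHL, on the plus strand at chr3:10150596-10150603, and 8.65% of the 10835 tested genes with such a region hold one. EGLN3 holds a 7mer-A1 on the minus strand at chr14:33948600-33948606 and a 6mer. NDRG1 and BNIP3 hold a 6mer each, and HIF1A, EPAS1, ARNT, EGLN1, ADM and CA9 hold none of these letters, as do 60.2% of the tested genes. In the windows below the matched bases are in capitals.
VHL 8mer: acaaatgtcttAAAGGGAAtcatttttgta
EGLN3 7mer-A1: taagttagggtAAGGGAAagaaagatcct

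FPKM, which divides a gene's fragments by its length and by the size of its library, allows levels to be compared between genes. Depth was roughly 19100000 to 23300000 read pairs per library, an estimate from the steps in low values. The libraries did not sort by group on their leading axis of variation, which took up 54.1% of the variance. On it the second miR-204-5p library and miR-NC replicates 1 and 2 lay at 26.1 to 33.1, and the other 3 lay at -41.1 to -15.3. Replicate 3 of miR-204-5p also stood apart in RN7SK, a small RNA without a poly(A) tail, at 361 FPKM against 5.24 to 14.5 FPKM elsewhere. Of 13 pigment epithelium markers 7 passed the filter on low values given below, with summed levels of 343 to 433 FPKM with miR-204-5p and 355 to 399 FPKM with miR-NC, most of it the keratins KRT8 and KRT18. The defining markers RPE65, TYR and TTR were at or near 0 (at most 0.029 FPKM). TYRP1, LRAT and PMEL were low too, at no more than 0.10, 0.46 and 0.62 FPKM. Besides the keratins, the label of a pigment epithelium line was thus carried by BEST1, RLBP1, OTX2, SERPINF1 and MITF, at 0.95 to 9.70 FPKM. Summed photoreceptor markers reached at most 1.44 FPKM and endothelial markers 0.11 FPKM. The summed immune markers (24.6 to 39.8 FPKM from CD68, a lysosomal protein of many cell types) held no more than 0.51 FPKM of PTPRC, and the summed glial markers (2.62 to 5.69 FPKM) were mostly RLBP1, which the pigment epithelium also expresses.

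No member was called as higher or lower with miR-204-5p. Limma was run on log2(FPKM + 1) for the genes that reached an FPKM of 0.5 in 3 or more libraries, with Benjamini-Hochberg adjustment over 13151 genes. It called 0 of the 9 members that passed the filter, and 0 genes in all, which is 0% of genes in either direction at an adjusted p under 0.05, while 273 genes (2.08%, with 1.16% higher and 0.92% lower) had an unadjusted p under 0.05, of which 0 were members. EGLN3 did not reach the filter. All 9 tested members had a negative log2 fold change, from -0.03 for ARNT to -0.45 for NDRG1 with a median of -0.28, beside a median of -0.02 and 53.1% negative over all genes tested. The mean FPKM of EGLN3 was also lower with miR-204-5p. The members were chosen with earlier results of these data known, so their shared direction is not independent evidence. In 0 of the 10 did the miR-204-5p libraries all lie below or all lie above the miR-NC libraries, patterns seen in 2.17% and 3.77% of tested genes. The number of negative members was 6 of 9 without miR-NC replicate 2, and 7 of 9 without miR-NC replicate 1 or without miR-204-5p replicate 1. In bulk RNA a share of cells with less transcript and less transcript in every cell cannot be told apart.

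**Figure D1:**
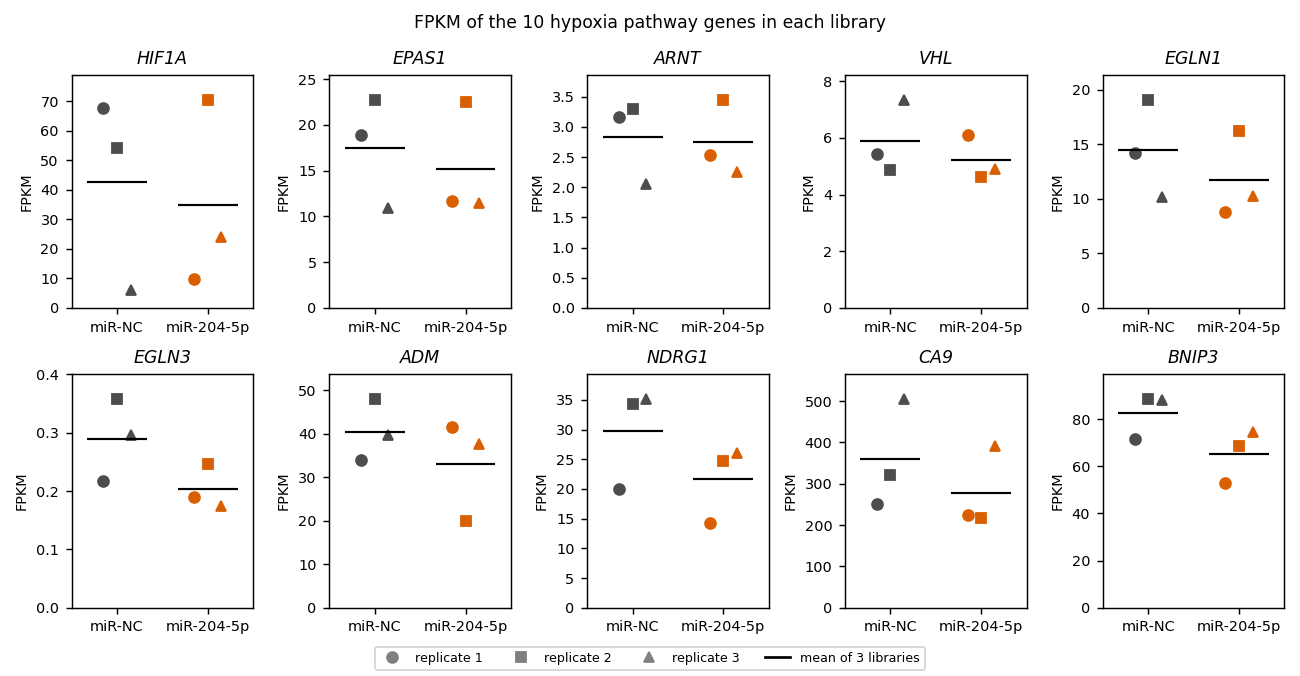
FPKM of each of the 10 genes in each library (vertical axes start at 0 and differ between panels), with miR-NC on the left, miR-204-5p on the right, a marker shape per replicate number and a bar at the mean of 3 libraries. The bar of miR-204-5p is the lower in every panel and the points of the groups overlap in every panel, with HIF1A the most scattered relative to its mean, from 6.05 to 70.5 FPKM.

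HIF1A, the oxygen-labile alpha subunit found in most cell types, varied more between libraries than any other member. With miR-204-5p it stood at 9.85, 70.5 and 24.1 FPKM in replicates 1, 2 and 3, and with miR-NC at 67.8, 54.0 and 6.05 FPKM. The highest value was thus 11.7 times the lowest, each group held both a high and a low library, and the lowest library of all was a control. The deposited table holds no read counts, so whether the low values stand for less HIF1A RNA or for fewer fragments assigned to the gene was not tested, and the same holds for its range and its ratios. Its log2 fold change was -0.15 (standard error 1.00, 95% limits -2.53 to 2.23, limma, adjusted p = 0.9999), so a change of several-fold in either direction lies within the limits. On the log2(FPKM + 1) scale its range was 3.34, and 83 other tested genes (0.631%) had a range as wide, against a median range of 0.67. The sign of the fold change turned when miR-204-5p replicate 1 (0.50) or either of the high controls, replicate 1 (0.45) and replicate 2 (0.29), was left out, and it reached -1.19 with the low control, replicate 3, left out and -0.86 with miR-204-5p replicate 2 left out. HIF1A lies on chromosome 14 (61695513 to 61748259, plus strand, GRCh38). Its antisense-named neighbours HIF1A-AS1 and HIF1A-AS3 stood at no more than 0.29 and 0.11 FPKM, far below the gene itself.

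The 3 tested genes whose profile over the 6 libraries lay nearest to that of HIF1A were REPIN1, TPCN1 and FILIP1L. Likeness was the root mean square difference of log2(FPKM + 1) after centring each gene, which was 0.23, 0.25 and 0.27 for these, beside a median of 1.27 over all tested genes. REPIN1, a zinc finger protein, stood at 2.73, 31.9 and 10.1 FPKM with miR-204-5p and at 34.7, 28.9 and 2.78 FPKM with miR-NC. FILIP1L was nearly absent from the libraries where HIF1A was lowest, at 0.042 FPKM in replicate 1 of miR-204-5p and 0.032 FPKM in replicate 3 of miR-NC, and stood at 3.10 to 8.19 FPKM in the other 4.

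EPAS1, the alpha subunit also called HIF-2 alpha, followed the same libraries within a narrower range. It stood at 11.7, 22.5 and 11.4 FPKM with miR-204-5p and at 18.9, 22.8 and 10.9 FPKM with miR-NC, a log2 fold change of -0.20 (95% limits -1.03 to 0.63). Replicates 2 of both groups were the highest and replicates 3 the lowest, and the sign of the fold change turned without miR-NC replicate 2 (0.0077). ARNT, the partner of both alpha subunits, which is not itself controlled by oxygen, stood at 2.54, 3.45 and 2.25 FPKM with miR-204-5p and at 3.17, 3.29 and 2.05 FPKM with miR-NC. Its group means lay within the spread of either group (2.75 ± 0.63 against 2.84 ± 0.68 FPKM, SD, n = 3 each), with limits of -0.54 to 0.48, and its sign turned in 5 alternatives. HIF3A, the third alpha subunit, was listed at 0 in all 6 libraries.

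Which alpha subunit was the more abundant depended on the library. The ratio of EPAS1 to HIF1A in FPKM was 1.19, 0.319 and 0.473 with miR-204-5p and 0.279, 0.421 and 1.80 with miR-NC. EPAS1 therefore exceeded HIF1A in replicate 1 of miR-204-5p and replicate 3 of miR-NC, which were the libraries low in HIF1A, and HIF1A exceeded EPAS1 in the other 4. The group difference of the log2 ratio was -0.05 (two-sided exact permutation test over libraries, p = 1, where 0.1 is the smallest p that 3 against 3 allows).

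VHL, the substrate-binding part of the ubiquitin ligase that acts after the oxygen sensors, had the smallest ratio of highest to lowest library among the members. It stood at 6.09, 4.61 and 4.91 FPKM with miR-204-5p and at 5.44, 4.87 and 7.35 FPKM with miR-NC, so its highest value was 1.59 times its lowest, close to the 1.66 times of BNIP3. Its log2 fold change was -0.14 (95% limits -0.62 to 0.34), and it was 0.0052 without miR-NC replicate 3, the library with the highest value. The 8mer site shown above thus stood beside no fall of VHL RNA that passed the test.

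EGLN1, the prolyl hydroxylase known as PHD2 and the main HIF hydroxylase in most cells, stood at 8.80, 16.2 and 10.2 FPKM with miR-204-5p and at 14.2, 19.1 and 10.2 FPKM with miR-NC. Its mean was 11.7 ± 3.94 against 14.5 ± 4.47 FPKM (SD, n = 3 each), and the log2 fold change was -0.28 (95% limits -0.99 to 0.42). Leaving out miR-NC replicate 2 gave -0.073 and leaving out miR-204-5p replicate 1 gave -0.11, while the value was -0.52 with the second miR-204-5p library removed and -0.50 with the third control removed. EGLN2, a further HIF hydroxylase, spanned 4.84 to 11.2 FPKM. EGLN3, known as PHD3 and itself a HIF target in many cells, was the lowest member, at 0.19, 0.25 and 0.17 FPKM with miR-204-5p and 0.22, 0.36 and 0.30 FPKM with miR-NC. That corresponds to roughly 9.5 to 23.7 read pairs per library over its longest transcript of 2.849 kb, so its differences rest on few reads. In the annotation EGLN3 overlaps SPTSSA and EGLN3-AS1, and the latter was listed at 0 throughout. The ratio of EGLN3 to EGLN1 in FPKM was between 0.0152 and 0.0291 in the 6 libraries, and the group difference of its log2 ratio with a pseudocount of 1 was 0.18 (two-sided exact permutation test, p = 0.7), which turned to -0.05 with a pseudocount of 0.1 (exact p = 0.9).

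The HIF target genes CA9, BNIP3, ADM and NDRG1 were abundant. CA9, a membrane carbonic anhydrase that acidifies the space outside the cell, stood at 224, 218 and 391 FPKM with miR-204-5p and at 251, 322 and 504 FPKM with miR-NC. Its mean over the 6 libraries was higher than that of 99.1% of tested genes. Replicate 3 was the highest library of each group, the groups overlapped, and the log2 fold change was -0.37 (95% limits -1.17 to 0.43), or -0.09 without miR-NC replicate 3. CA12, another membrane carbonic anhydrase, spanned 3.12 to 6.01 FPKM. CA9 lies on chromosome 9 (35673856 to 35681159, plus strand, GRCh38) and overlaps ARHGEF39 in the annotation.

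NDRG1, a stress-induced cytoplasmic protein, had the most negative log2 fold change of the members tested. EGLN3, which was not tested, had a lower ratio of mean FPKM, 0.70 against 0.73 for NDRG1. It stood at 14.2, 24.7 and 26.1 FPKM with miR-204-5p and at 20.03, 34.3 and 35.1 FPKM with miR-NC. Replicate 1 was the lowest in each group, and replicate 1 of miR-NC lay below 2 of the miR-204-5p libraries, so the groups overlapped. The mean was 21.7 ± 6.48 against 29.8 ± 8.48 FPKM (SD, n = 3 each) and the log2 fold change -0.45 with a standard error of 0.31 (limma, adjusted p = 0.9999). It was -0.18 without miR-204-5p replicate 1. In the authors' deposited table NDRG1 had a p of 0.263, the smallest among the members, and a q of 1.

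BNIP3, a mitochondrial protein that promotes mitophagy, stood at 53.1, 68.4 and 74.4 FPKM with miR-204-5p and at 71.5, 88.3 and 88.0 FPKM with miR-NC. Only replicate 3 of miR-204-5p and replicate 1 of miR-NC crossed. Its log2 fold change of -0.34 had the smallest p of the members (limma, 95% limits -0.79 to 0.11, unadjusted p = 0.114, adjusted p = 0.9999), and stayed between -0.44 and -0.20 in all 14 alternatives. The pseudogene BNIP3P1, which could share reads with it, reached at most 0.60 FPKM. BNIP3L, the paralog known as NIX, spanned 32.9 to 58.9 FPKM with a log2 fold change of -0.36.

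ADM, the vasodilator peptide adrenomedullin, showed a different order of libraries. It stood at 41.5, 19.96 and 37.7 FPKM with miR-204-5p and at 33.8, 47.9 and 39.6 FPKM with miR-NC. Replicate 2 of miR-204-5p alone was low, and without it the log2 fold change of -0.33 (95% limits -1.04 to 0.37) was -0.02.

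**Figure D2:**
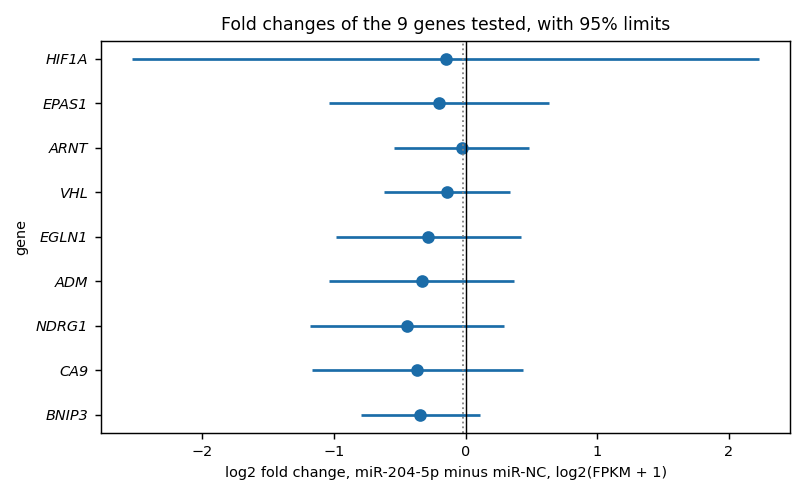
Difference of the group means of log2(FPKM + 1), negative where miR-204-5p is the lower (points), with 95% limits from limma (lines) for the 9 genes tested, n = 3 libraries per group. The dotted line is the median of all genes tested (-0.02), every point lies left of 0 and every interval includes 0, the widest being that of HIF1A (-2.53 to 2.23).

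Ordered by mean FPKM over the 6 libraries, the members ran CA9 (318), BNIP3 (73.9), HIF1A (38.7), ADM (36.8), NDRG1 (25.7), EPAS1 (16.4), EGLN1 (13.1), VHL (5.55), ARNT (2.79) and EGLN3 (0.25). CA9 was set apart from BNIP3, EGLN1 from VHL, VHL from ARNT and ARNT from EGLN3 without overlap between libraries. BNIP3 exceeded HIF1A in 5 of 6 libraries, HIF1A exceeded ADM in 3 of 6, and ADM exceeded NDRG1 in 5 of 6, so the places of HIF1A and ADM do not differ beyond their spread. NDRG1 exceeded EPAS1, and EPAS1 exceeded EGLN1, in 6 of 6 libraries, although their ranges over libraries overlapped.

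Across libraries 7 of the 9 tested members fell into sets that cut across the transfection groups, sets noticed after their values were seen. HIF1A, EPAS1, ARNT and EGLN1 were highest in the same 3 libraries (miR-204-5p replicate 2 with miR-NC replicates 1 and 2), as were 33.2% of all tested genes, and these are the libraries at one end of the leading axis. NDRG1, CA9 and BNIP3 were highest in another 3 (replicate 3 of miR-204-5p and replicates 2 and 3 of miR-NC), as were 2.38% of all tested genes. VHL (miR-204-5p replicate 1 with miR-NC replicates 1 and 3) and the target ADM (miR-204-5p replicate 1 with miR-NC replicates 2 and 3) belonged to neither set. Other HIF target genes, described below, fell in both sets. Of 55, 21 (38.2%) were highest in the libraries where HIF1A was, which is close to the 33.2% of all tested genes. In the libraries where CA9 was highest, 10 (18.2%, beside 2.38% of all tested genes) were. Of 29 other regulators, also described below, 14 (48.3%) were highest where HIF1A was and 0 where CA9 was. In replicate 3 of miR-NC, HIF1A lay 2.01 below its own mean on the log2(FPKM + 1) scale and CA9 0.73 above its own mean. These were the lowest value of the factor and the highest of the target. In replicate 1 of miR-204-5p, the other library low in HIF1A, both genes lay below their means, HIF1A at -1.39 and CA9 at -0.44. Whether the low HIF1A values stand for less RNA was not tested. Of the tested genes, the nearest in profile to CA9 was FAM162A, a mitochondrial membrane protein gene named after its values were seen, with a root mean square difference of 0.10 (median 0.55). It stood at 33.8, 34.1 and 50.8 FPKM with miR-204-5p and at 39.6, 46.6 and 70.5 FPKM with miR-NC.

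**Figure D3:**
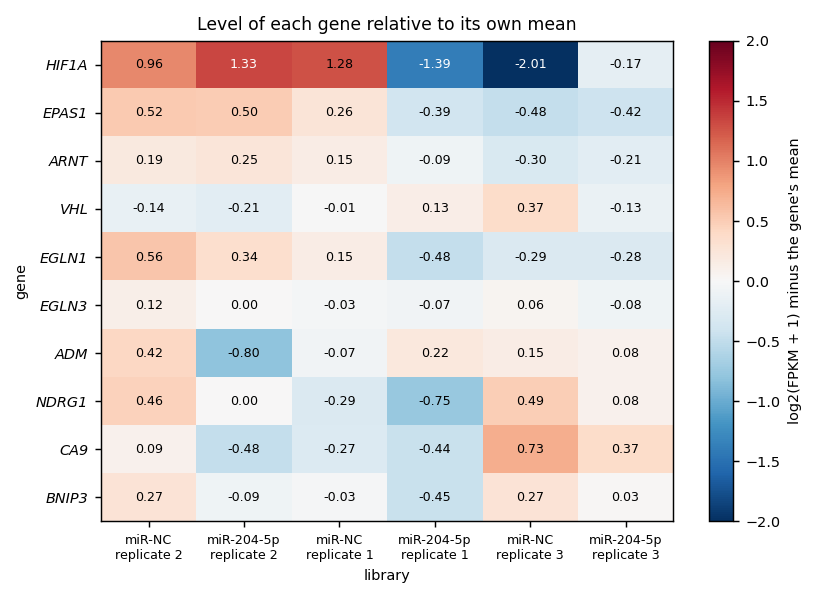
Each gene's log2(FPKM + 1) minus its mean over the 6 libraries, with libraries ordered by the leading axis of variation from left to right (red above the gene's mean, blue below). HIF1A, EPAS1, ARNT and EGLN1 are red in the 3 libraries on the left, while CA9 is lowest in replicate 2 of miR-204-5p (-0.48) and highest in replicate 3 of miR-NC (0.73).

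The promoters of CA9 and BNIP3 are shown as RefSeq gives them (GRCh38.p14, 250 bases before to 50 after the gene start). Whether promoter matches bear on the library pattern was not tested. The core of the hypoxia response element was searched as ACGTG or GCGTG on both strands (CACGT and CACGC on the other), with overlapping matches counted, and matches are in capitals. Of 35116 promoters, 48.4% hold at least 1 match, so a match in itself is common. Promoter entries matched 8 of the 10 members, all but VHL and NDRG1. Of the 8, 6 hold a match. HIF1A (in 1 of its 2 entries), EPAS1, EGLN1 and ADM hold 1 each. CA9 holds 1, beginning 18 bases before the start (chr9:35673678-35673977, plus strand). BNIP3 holds 6, between 143 and 104 bases before the start (chr10:131981874-131982173, minus strand), and 0.923% of promoters hold at least 6.
CA9 promoter: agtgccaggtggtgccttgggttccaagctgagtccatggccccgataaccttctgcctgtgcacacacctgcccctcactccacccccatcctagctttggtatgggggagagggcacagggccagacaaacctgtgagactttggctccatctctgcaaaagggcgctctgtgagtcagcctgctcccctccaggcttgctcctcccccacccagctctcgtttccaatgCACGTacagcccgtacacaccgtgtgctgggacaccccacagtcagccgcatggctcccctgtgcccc
BNIP3 promoter: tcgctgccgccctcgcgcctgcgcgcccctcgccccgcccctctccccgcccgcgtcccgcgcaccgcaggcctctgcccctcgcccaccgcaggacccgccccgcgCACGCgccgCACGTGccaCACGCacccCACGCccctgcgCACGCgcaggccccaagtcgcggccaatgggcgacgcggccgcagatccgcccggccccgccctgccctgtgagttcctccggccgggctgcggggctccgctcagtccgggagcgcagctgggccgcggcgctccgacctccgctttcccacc

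Other target genes of the pathway, 56 by name of which 55 were tested, mostly had negative fold changes. None was called (0 of 55 in either direction, limma, adjusted p). Of the 55, 47 were negative, and the median was -0.35 beside -0.02 for all genes tested. An unadjusted p under 0.05 was reached by 3 of 55 (5.45%), beside 2.08% of all genes tested. In 4 of them, HK1, PGK1, TPI1 and MXI1, the miR-204-5p libraries all lay below the miR-NC libraries (7.27%, beside 2.17% of all genes tested). The count of negative genes was 42 to 50 of 55 when single libraries were left out, and the median ran from -0.41 to -0.24. Hypoxia-induced genes were known from an earlier look at these libraries to lie lower as a group, so the direction of the list is not independent evidence.

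Among these, HK1, a hexokinase, stood at 60.8, 52.7 and 57.1 FPKM with miR-204-5p and at 74.9, 82.2 and 77.2 FPKM with miR-NC. For HK1 the log2 fold change came to -0.45 (95% limits -0.79 to -0.11, limma, unadjusted p = 0.0171, adjusted p = 0.9999). All 3 miR-204-5p libraries were lower by more than the spread within either group, but HK1 did not pass the adjustment. PGK1, a glycolytic kinase, stood at 207 ± 36.4 against 284 ± 32.9 FPKM (SD, n = 3 each), and MXI1, which opposes MYC, at 3.99 ± 0.95 against 6.003 ± 1.25 FPKM. On the other side, the non-coding MIR210HG, the host transcript of the hypoxia-induced miR-210, had the most positive fold change of the list. It stood at 17.4, 12.6 and 25.6 FPKM with miR-204-5p and at 7.52, 8.00 and 14.4 FPKM with miR-NC, a log2 fold change of 0.83 (95% limits 0.05 to 1.61, limma, unadjusted p = 0.0394, adjusted p = 0.9999). Replicate 3 was again the highest library of each group, and replicate 3 of miR-NC lay above replicate 2 of miR-204-5p. PFKL, a phosphofructokinase subunit, and EGLN2 had the next smallest p-values on that side, with log2 fold changes of 0.24 (0.12 without miR-NC replicate 1) and 0.16 (-0.068 with miR-204-5p replicate 3 left out).

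Other regulators of the factors, 30 by name of which 29 were tested, were divided. None was called, 17 of 29 were negative and 12 positive, the median was -0.10, and 0 had an unadjusted p under 0.05 (limma). With single libraries left out, 15 to 21 of 29 were negative, and the median was -0.20 when miR-204-5p replicate 2 was the library left out and -0.0059 when it was replicate 3 of that group. The smallest p-values on the lower side belonged to KDM4C, a histone demethylase, WSB1, a ubiquitin ligase adaptor, and IDH1, cytosolic isocitrate dehydrogenase, with log2 fold changes of -0.36, -0.40 and -0.31. On the higher side they belonged to FH and SDHB, enzymes of the citric acid cycle whose loss is known to stabilise HIF alpha, at 0.23 and 0.16, and to SIAH2, a ubiquitin ligase for EGLN proteins, at 0.13. Single libraries moved each of these by over 1.5 times without turning its sign: KDM4C was -0.23 without miR-204-5p replicate 1, and WSB1 and IDH1 were -0.24 and -0.17 without miR-NC replicate 2. FH was 0.099 without miR-NC replicate 3. SDHB was 0.081 when miR-204-5p replicate 1 was left out, and SIAH2 was 0.080 when miR-NC replicate 1 was. HIF1AN, the asparagine hydroxylase that blocks coactivator binding, stood at 3.72 ± 0.69 against 3.96 ± 0.37 FPKM (SD, n = 3 each). The lists share 4 genes (EGLN2, KDM3A, PDK1 and WSB1).

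**Figure D4:**
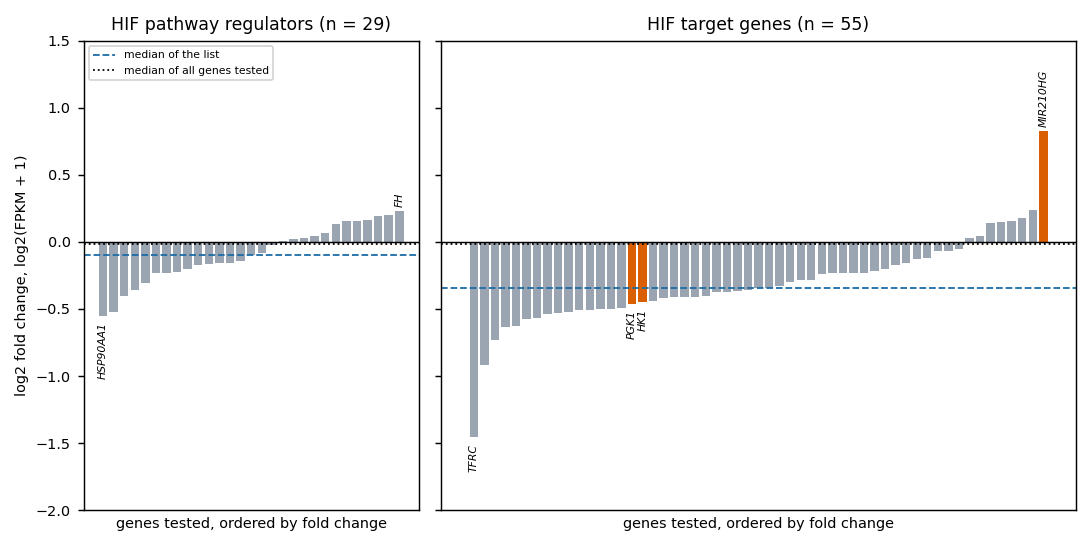
Log2 fold change of each tested gene in the list of regulators (left) and of target genes (right), ordered by size, with orange bars for an unadjusted p under 0.05 (limma). The dashed line is the list's median (-0.10 and -0.35) and the dotted line that of all genes tested (-0.02); HK1, PGK1 and MIR210HG are the orange bars.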

How the data were processed

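Poly(A) RNA of 6 ARPE-19 libraries was sequenced as paired ends, per the labels' protocols. The authors deposited FPKM values, 1 column per library, with 0.0001 in the place of 0. Beside these stood a fold ratio of the mean FPKM, its log2, and a p-value and q-value, all the authors' own. The submitters' processing notes name StringTie 1.3.4d, HISAT2 2.0.4, DESeq2, edgeR, cutadapt 1.9 and, as the build, GRCh38; they give no roles. The annotation release, the tool behind the p-values and the use of strand in counting were not given in the sources used here. FPKM is a share of a library, so an RNA that fills 1 library lowers its other values.

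Values of 0.0001 were read as 0. Limma (version 3.58.1, in R 4.3.3), with its intensity trend, was fitted without covariates to log2(FPKM + 1) of the 13151 genes that reached an FPKM of 0.5 in 3 or more libraries. Tests were two-sided with Benjamini-Hochberg adjustment, called at 0.05, and checked on simulated data. This scale understates the change of low genes. No pair of libraries had equal values in more than 0.084% of tested genes. Alternatives were other pseudocounts, filters and scalings, no trend, a replicate block and each library left out.

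The members and lists were chosen with earlier results of these data known. All members were named, then in each list the 3 genes with the smallest unadjusted p in each direction, the 3 genes most like HIF1A (the widest-ranging member), and the overlapping or near-identical genes in the table (5 of 9 names matched; VHLL reached at most 0.19 FPKM). Any other gene was named after its values were seen. Depth came from the commonest step in FPKM times length among genes with a single transcript. Only 25.8% to 32.4% of low values lay within 0.02 of a whole number of 0.5 steps, so it is rough, and no count was recovered. Python 3.11.15 was used.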

Additional observations from a re-analysis of the deposited data

How the results depend on the processing

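Of 126 member values under 14 alternatives, 116 kept their direction and all stayed short of the adjusted threshold (limma). The other 10 turned direction. Other filters, no trend and the replicate block cannot alter a fold change in this balanced design. Their values, here and for the list genes below, were therefore bound to keep their direction. HIF1A was 0.50, 0.45 and 0.29 without miR-204-5p replicate 1, miR-NC replicate 1 and miR-NC replicate 2, ranging from -1.19 to 0.50. EPAS1 was 0.0077 without miR-NC replicate 2 (range -0.50 to 0.0077) and VHL 0.0052 without miR-NC replicate 3 (range -0.25 to 0.0052). ARNT was 0.012 with quantile normalization and 0.0049, 0.065, 0.038 and 0.058 without miR-204-5p replicates 1 and 3 and miR-NC replicates 1 and 2 (range -0.19 to 0.065). The log2 ratio of EPAS1 to HIF1A, -0.05, ran from 0.058 without miR-204-5p replicate 3 and 0.35 without its replicate 2 to 0.70 without miR-NC replicate 3, and was lowest, at -0.57, without miR-NC replicate 1. The group difference of the log2 ratio of EGLN3 to EGLN1 was -0.051 with a pseudocount of 0.1. Of 182 values of 13 named list genes 1 turned, EGLN2, at -0.068 without miR-204-5p replicate 3 (range -0.068 to 0.46). Calls over all genes stayed at 0 except for 3 genes without miR-204-5p replicate 2 (0 to 3 over left-out libraries), none of them a member or list gene. The cause was not tested. Genes with an unadjusted p under 0.05 numbered 273, 731 of 29823 without a filter, and 163 to 753 over left-out libraries. Scaling moved the median of all genes by under 0.1 (log2).

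A fit with replicate block called 0 genes, 941 had an unadjusted p under 0.05 and the smallest adjusted p of a member was 0.661 (limma). Pairing by number cannot change the EPAS1 to HIF1A and EGLN3 to EGLN1 differences, -0.05 and 0.18, because each number has 1 library in each group. Deviations from the group means correlated at 0.042 between the libraries numbered 1, 0.55 between those numbered 2 and 0.52 between those numbered 3, so not every library correlated best with its own number, and the titles do not say what a number marks.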

Other observations

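Some target genes of the list, named after their values were seen, stood far from the rest in 1 library. TFRC, the transferrin receptor, stood at 0.25 FPKM in replicate 1 of miR-204-5p and at 17.3 to 32.2 FPKM in the other 5 libraries. INSIG2, which retains SCAP in the endoplasmic reticulum, stood at 20.1 FPKM in replicate 2 of miR-NC and at 2.22 to 4.24 FPKM elsewhere. AK4, a mitochondrial adenylate kinase, stood at 14.4 FPKM in replicate 1 of miR-NC and at 1.57 to 4.42 FPKM elsewhere. In the list of regulators, EP300, a coactivator of the factors, spanned 0.068 to 1.10 FPKM. Its lowest values were in replicates 3 of both groups (0.14 and 0.068 FPKM).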
